A study of Mus musculus with 32 samples.

Results

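The astroglial genes described here were 10 genes chosen by name: Slc1a2, Slc1a3, Gfap, Aqp4, Aldh1l1, S100b, Glul, Sox9, Fabp7 and Nes. They were found by their Ensembl identifiers among the 37310 genes of the count table, and 10 of 10 were present and passed the filter on low counts. Slc1a2 encodes GLT1, the glutamate transporter whose promoter drives the transactivator in both tumor models. RNA was sequenced from frozen biopsies of 6 GMYC and 8 GTML brain tumors. GMYC mice were Glt1-tTA/TRE-MYC mice, doubly hemizygous, in which the tetracycline-regulated transactivator made from the Glt1 promoter turned on a human MYC transgene. GTML mice were the corresponding model with a MYCN transgene under the same Glt1-driven transactivator. The animals of both models were on an FVB/N background, the tumors arose in the hindbrain at or within the cerebellum, and both transgenes stay on in this Tet-OFF system unless doxycycline is given. The age and sex of each animal are not given in the sources used here. The highest count of 4 Y-linked genes was 642 to 938 in all 6 GMYC tumors, 361 to 719 in GTML tumors 1, 4, 6 and 7 and 3 to 8 in GTML tumors 2, 3, 5 and 8, so the models were not balanced in this respect, and a fit with a term for it is given beside the call of Hopx. In these data 1 biopsy stands for 1 tumor. Some of the GTML tumors were sequenced in earlier work, and which ones is not given in the sources used here, so model and time of sequencing cannot be told apart.

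Astrocytes and their progenitors clear glutamate from the synaptic cleft through GLT1 (Slc1a2) and GLAST (Slc1a3) and convert it to glutamine through glutamine synthetase (Glul). In the cerebellum, Bergmann glia are the specialised astrocytes that surround Purkinje cells, and radial glia are the progenitors from which astroglia derive. Gfap, Aqp4, Aldh1l1 and S100b mark maturing astrocytes, Sox9 is a transcription factor of gliogenesis, and Fabp7 and Nes mark radial glia and neural stem cells.

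Values are CPM, counts of a gene relative to the total of its library, scaled by TMM, a correction for library composition, and log2 fold changes are GTML over GMYC from edgeR's quasi-likelihood test with Benjamini-Hochberg adjustment over 21024 genes. A gene was called when its adjusted p was under 0.01 and its absolute log2 fold change above 1. Total counts ranged from 4602294 to 7279811 per tumor, with all 6 GMYC tumors at 6218378 or more. The paper described 1 GTML tumor as an outlier that also had a signature like the Sonic hedgehog subgroup of medulloblastoma. Its comparison of the models used only tumors classified as Group 3, another subgroup. The paper's text does not name the outlier among the deposited tumors, and the main fit here holds all 8 GTML tumors. In the counts, GTML tumor 2 stood apart from the other GTML tumors, and values without it are given beside the results that it moves. Small nucleolar RNAs (snoRNAs) took a share of the counts that split the tumors into 6 above 0.3% (GMYC 1 to 4 and GTML 1 and 2) and 8 at or under it (GMYC 5 and 6 and GTML 3 to 8). Values within the sides of this split are given for some genes only, among them Slc1a2, Slc1a3, Glul, Aqp4 and Hopx. Other pooled log2 fold changes can differ between the sides. Above 0.3% and at or under it, Kdr was 0.073 and 2.13 and C3 -0.71 and -2.83, while Hey1 was -0.82 and -0.71. No gene exceeded 1.27 counts per exon base in any tumor, among protein-coding genes, and the part of such a limit in the values of highly expressed genes was not tested. The tumor identity genes were high in both models, with Otx2 between 237 and 377 CPM and Crx between 97.4 and 428 CPM, where the lowest value of Crx was that of GTML tumor 2. In bulk biopsies, fewer cells of a type and less RNA per cell cannot be told apart.

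Slc1a2 was the gene whose promoter the transgenes used, and the window before its start is shown for that reason. The window of 250 bases before the RefSeq start on GRCm38.p6 lies at chr2:102706188-102706437 on the + strand, and capitals mark the 4 matches of the E-box core CANNTG. GENCODE M21 places the first start of the gene 47779 bases upstream of the start used here, and 29 of the 250 bases are annotated as exon there. The stretch of the Glt1 promoter carried by the transgene is not given in the sources used here. For the second glial glutamate transporter, Slc1a3, the window lies at chr15:8710808-8711057 on the - strand, and capitals mark the single match of the STAT motif TTCNNNGAA.
Slc1a2: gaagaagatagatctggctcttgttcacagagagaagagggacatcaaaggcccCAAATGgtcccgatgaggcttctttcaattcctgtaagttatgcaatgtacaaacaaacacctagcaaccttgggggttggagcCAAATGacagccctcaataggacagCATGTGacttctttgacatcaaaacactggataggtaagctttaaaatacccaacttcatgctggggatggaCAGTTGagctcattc
Slc1a3: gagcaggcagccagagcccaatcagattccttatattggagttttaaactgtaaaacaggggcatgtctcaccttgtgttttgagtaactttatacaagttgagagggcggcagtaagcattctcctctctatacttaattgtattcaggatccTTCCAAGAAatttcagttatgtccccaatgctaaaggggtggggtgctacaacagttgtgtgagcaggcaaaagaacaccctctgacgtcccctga
The table of RefSeq windows held 8 of the 10 genes. The E-box CACGTG, the motif best known for MYC and MYCN and also a match of CANNTG, was found on either strand in 0 of these 8 windows against 6.02% of 32851 windows of the same length. The core CANNTG was found in 6 of 8 windows against 66.2% of all windows, and TTCNNNGAA in 1 of 8 against 7.02%. The TATA motif TATAAA was found in 1 of 8, the window of Slc1a3, against 12.4%. These are matches of letters and do not show binding.

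Slc1a2 RNA was abundant in every tumor of both models. In GMYC tumors 1 to 6 the Slc1a2 level was 671, 660, 692, 810, 548 and 823 CPM, and in GTML tumors 1 to 8 it was 572, 255, 710, 495, 675, 659, 739 and 584 CPM. Behind these values stood 1573 to 6019 counts per tumor. The values of 13 tumors lay between 495 and 823 CPM, and GTML tumor 2 was the low one. The median was 682 CPM in GMYC and 622 CPM in GTML tumors, and the models overlapped. The fold change was -0.26 on the log2 scale (SE 0.182), which did not pass the test (edgeR's quasi-likelihood test, adjusted p = 0.308). It was -0.15 (adjusted p = 0.332) without GTML tumor 2, -0.76 (adjusted p = 0.374) among tumors with the higher snoRNA share and -0.10 (adjusted p = 0.710) on the other side of the split.

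Ranked by CPM per kilobase of exon, Slc1a2 was between rank 228 and rank 3603 of 15333 protein-coding genes in the 14 tumors, with a median rank in the top 2.98%. The lowest rank was that of GTML tumor 2, and in the other 13 tumors it was 974 or better. Its highest value was 0.458 counts per exon base, closer to the maximum of 1.27 than that of any of the other 9 genes. Among GMYC tumors the highest Slc1a2 level was 1.50 times the lowest, and among GTML tumors 2.89 times, or 1.49 times without GTML tumor 2. The standard deviation of its log2 CPM was 0.216 in GMYC tumors, below the median over all genes tested of 0.382, and 0.496 in GTML tumors, against a median of 0.497. Without GTML tumor 2 it was 0.204 in GTML tumors, against a median of 0.437.

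The driver genes separated the models. Myc was at 143, 145, 165, 134, 147 and 33.3 CPM in GMYC tumors 1 to 6 and between 2.59 and 8.66 CPM in GTML tumors. Mycn was between 7.63 and 34.3 CPM in GMYC tumors and at 191, 155, 130, 139, 184, 119, 190 and 164 CPM in GTML tumors. Neither gene overlapped between the models, with log2 fold changes of -4.63 (SE 0.329, adjusted p = 3.94e-06) for Myc and 2.79 (SE 0.289, adjusted p = 0.000152) for Mycn by edgeR. The counts were made on mouse genes, and how many of the reads came from the human MYC transgene was not tested.

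Whether the level of Slc1a2 moved with the driver was examined within each model, as 2 of 20 relations of Slc1a2 computed on log2 CPM. Across the 6 GMYC tumors, Pearson's r with Myc was -0.58 (exact permutation p = 0.114, adjusted p = 0.759) and Spearman's rho was -0.66 (exact permutation p = 0.175, adjusted p = 1). GMYC tumor 6 had the lowest Myc and the highest Slc1a2, and r was -0.32 without it. Without the 2 tumors farthest from the median of Slc1a2, GMYC tumors 5 and 6, r was -0.51. Across the 8 GTML tumors, r with Mycn was 0.05 (exact permutation p = 0.882, adjusted p = 0.981) and rho was 0.07 (exact permutation p = 0.882, adjusted p = 1). It was -0.20 without GTML tumors 2 and 4, the farthest from the median. Among the 6 GTML tumors with the lower snoRNA share r was 0.23 (exact permutation p = 0.672), and the other sides hold fewer than 6 tumors of a model. With 6 tumors the smallest exact two-sided p is 0.00278, which could pass at 0.05 before adjustment, while a single relation at that p among the 20 could not pass after it.

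**Figure D1:**
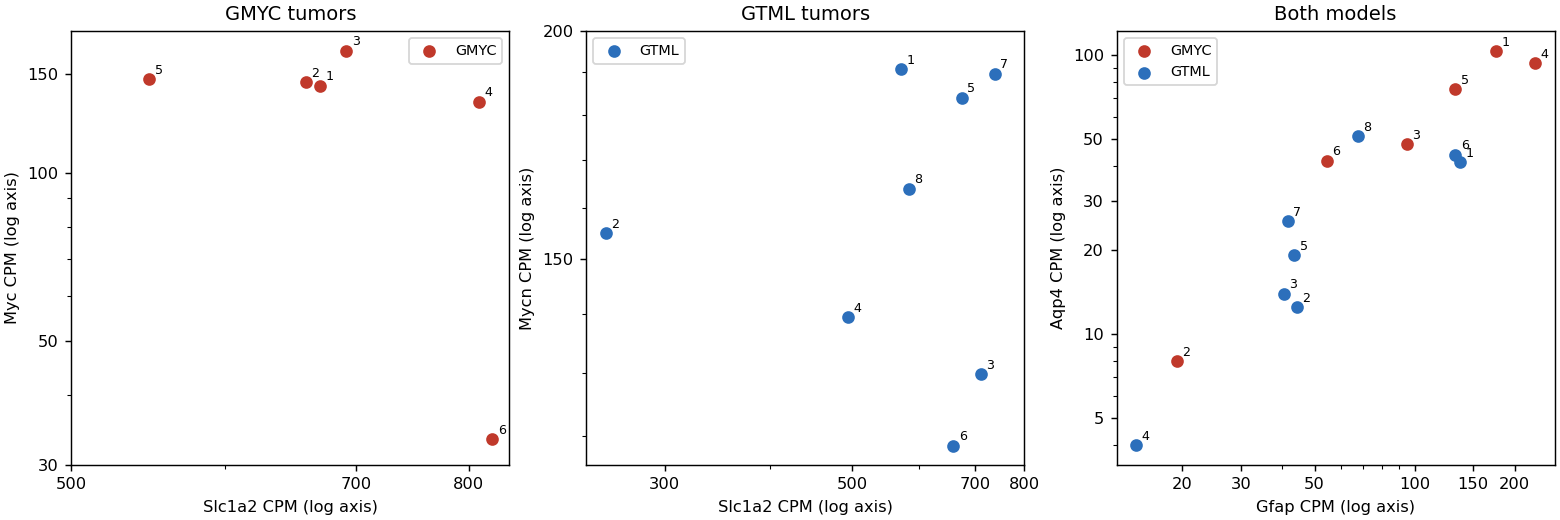
Slc1a2 against Myc in the 6 GMYC tumors (left), Slc1a2 against Mycn in the 8 GTML tumors (middle) and Gfap against Aqp4 in both models (right), in TMM-scaled CPM on log axes with the tumor number beside each point. In the left panel GMYC tumor 6 lies alone at 33.3 CPM of Myc, in the middle panel GTML tumor 2 lies alone at 255 CPM of Slc1a2, and in the right panel Gfap and Aqp4 are high and low in the same tumors of each model.

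Slc1a3, the second glial glutamate transporter, was at 185, 103, 125, 171, 197 and 66.2 CPM in GMYC tumors 1 to 6 and at 84.1, 163, 64.6, 15.5, 42.8, 86.6, 58.0 and 71.1 CPM in GTML tumors 1 to 8. In all, 5 of 6 GMYC tumors were above 7 of 8 GTML tumors, GMYC tumor 6 was in the range of the GTML tumors, and GTML tumor 2 was in that of the GMYC tumors. The log2 fold change was -0.95 (SE 0.366), with an unadjusted p of 0.0200 and an adjusted p of 0.0740 by edgeR. Without GTML tumor 2 it was -1.22 (adjusted p = 0.0131), still short of the call. It was -0.23 (adjusted p = 0.801) among tumors with the higher snoRNA share and -1.23 (adjusted p = 0.114) on the lower side. Per kilobase of exon, the ratio of Slc1a2 to Slc1a3 ran from 1.02 in GTML tumor 2 to 20.8 in GTML tumor 4.

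Glul, glutamine synthetase, was similar in level between the models. Glul was at 121, 88.8, 95.6, 121, 167 and 111 CPM in GMYC tumors and at 176, 179, 91.8, 101, 89.5, 108, 80.6 and 109 CPM in GTML tumors. GMYC tumor 5 and GTML tumors 1 and 2 were the high ones. The log2 fold change was -0.01 (SE 0.199, adjusted p = 0.989 by edgeR), but it was 0.75 (adjusted p = 0.223) among tumors with the higher snoRNA share and -0.53 (adjusted p = 0.0760) on the lower side, so its direction depends on the tumors taken. Across the 8 GTML tumors Glul was lower where Slc1a2 was higher, with r of -0.74 (exact permutation p = 0.0619, adjusted p = 0.759) and rho of -0.83 (exact permutation p = 0.0154, adjusted p = 0.308), which did not hold after adjustment over the 20 relations. It was -0.85 without GTML tumors 2 and 4, and -0.63 (exact permutation p = 0.153) over the 6 GTML tumors with the lower snoRNA share. In the 6 GMYC tumors r was -0.45 (exact permutation p = 0.375, adjusted p = 0.938) and rho was -0.26 (exact permutation p = 0.658, adjusted p = 1), and r turned to 0.55 without GMYC tumors 5 and 6.

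**Figure D2:**
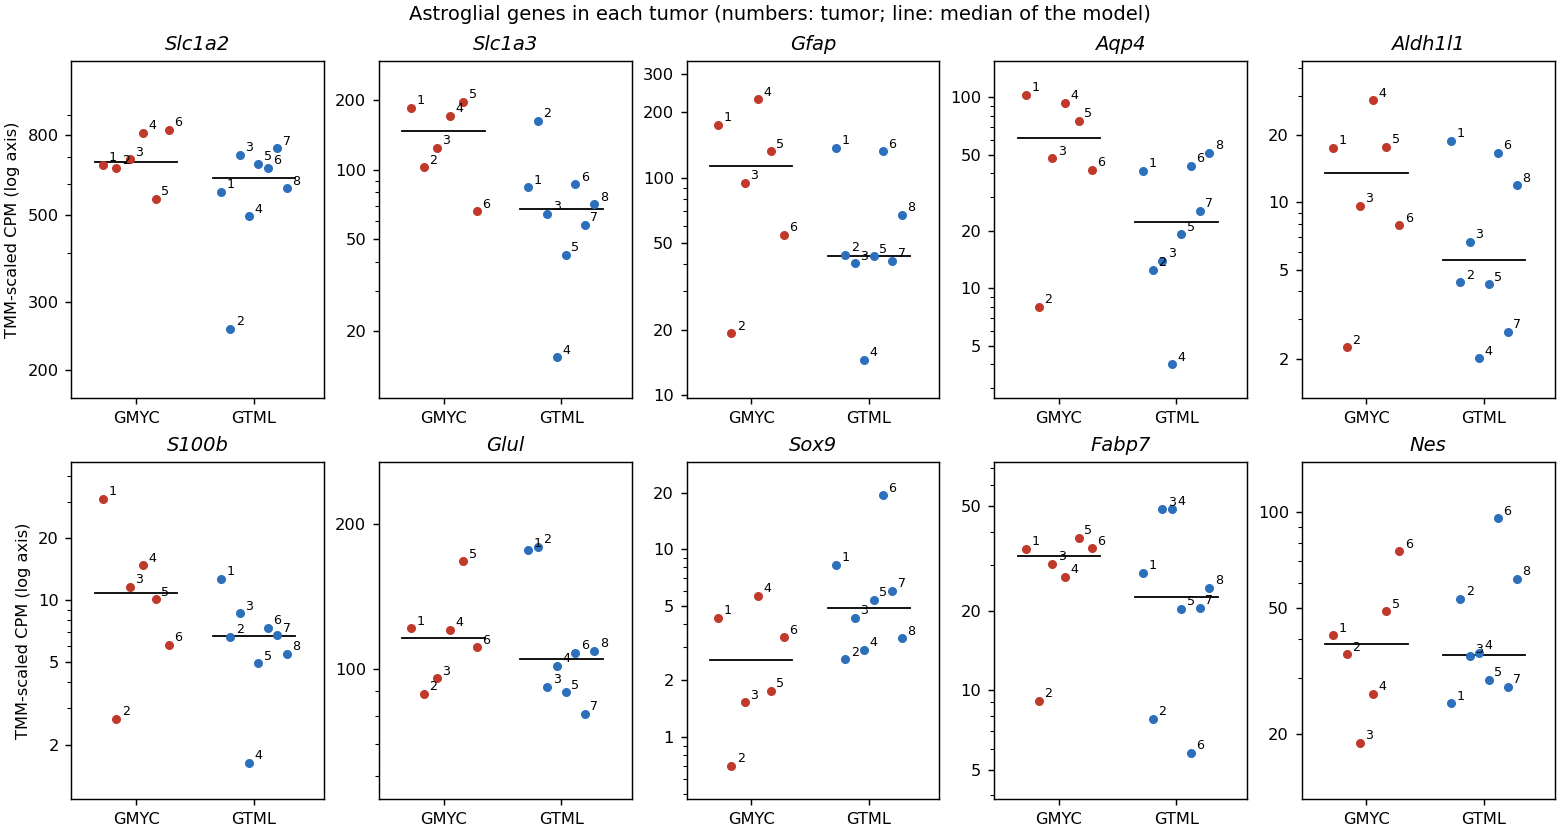
TMM-scaled CPM (log axis) of the 10 astroglial genes in each GMYC (red) and GTML (blue) tumor, with the tumor number beside each point and a line at the median of the model. The levels of the models overlap for all 10 genes, and the share of all genes tested that overlap was not counted. Slc1a2 and Glul vary least of the 10 between tumors. GMYC tumor 2 and GTML tumor 4 are lowest in their model for Gfap, Aqp4, Aldh1l1 and S100b.

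The markers of maturing astrocytes varied widely between tumors of one model. Gfap, the intermediate filament of astrocytes, was at 176, 19.2, 94.8, 230, 133 and 54.5 CPM in GMYC tumors and at 137, 44.3, 40.4, 14.6, 43.5, 132, 41.6 and 67.4 CPM in GTML tumors. Aqp4, the water channel of astrocyte endfeet, was at 103, 8.01, 47.9, 93.4, 75.2 and 41.8 CPM in GMYC tumors and at 41.4, 12.5, 13.9, 4.01, 19.1, 44.0, 25.4 and 51.3 CPM in GTML tumors. GMYC tumor 2 and GTML tumor 4 were the lowest of their models for both genes, and the models overlapped. Aldh1l1, a folate enzyme used as an astrocyte marker, was at 17.5, 2.25, 9.62, 28.5, 17.7 and 7.90 CPM in GMYC tumors and at 18.8, 4.38, 6.64, 2.00, 4.30, 16.7, 2.64 and 11.9 CPM in GTML tumors. S100b, a calcium-binding protein of astrocytes, was at 31.1, 2.67, 11.6, 14.8, 10.1 and 6.07 CPM in GMYC tumors and at 12.7, 6.66, 8.64, 1.64, 4.95, 7.36, 6.78 and 5.49 CPM in GTML tumors. These tumors were again the lowest of their models for both genes.

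Among GMYC tumors the highest level was 11.9 times the lowest for Gfap, 12.9 times for Aqp4, 12.7 times for Aldh1l1 and 11.7 times for S100b. Among GTML tumors these ratios were 9.43, 12.8, 9.40 and 7.73. Slc1a2 in the same libraries differed 1.50 times and 2.89 times, the latter 1.49 times without GTML tumor 2. In GMYC tumor 2, with the lowest Gfap, Aqp4, Aldh1l1 and S100b of its model, Slc1a2 was at 660 CPM and hence within the range of the other GMYC tumors. Per kilobase of exon, the ratio of Slc1a2 to Gfap ran from 1.13 in GMYC tumor 4 to 11.0 in GMYC tumor 2, and that of Slc1a2 to Aqp4 from 3.08 in GMYC tumor 1 to 58.7 in GTML tumor 4.

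None of the 4 markers passed the test between the models. The log2 fold change was -0.85 (SE 0.501, adjusted p = 0.221) for Gfap, -1.22 (SE 0.516, adjusted p = 0.0975) for Aqp4, -0.72 (SE 0.551, adjusted p = 0.348) for Aldh1l1 and -0.91 (SE 0.461, adjusted p = 0.160) for S100b by edgeR. Aqp4 had an unadjusted p of 0.0312, and without GMYC tumor 2 its fold change was -1.44 with an adjusted p of 0.0367, short of the threshold of 0.01. Within the sides of the snoRNA split the fold changes of Aqp4 were -1.21 and -1.16, with adjusted p of 0.612 and 0.231.

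That these markers were high and low in the same tumors was noticed in the values first, so the relations of Gfap with the other genes, 22 in all, describe these tumors and are no independent test. With Aqp4, r was 0.97 across the 6 GMYC tumors (exact permutation p = 0.00556, adjusted p = 0.0349) and 0.90 across the 8 GTML tumors (exact permutation p = 0.00635, adjusted p = 0.0349). Spearman's rho was 0.94 (exact permutation p = 0.0167, adjusted p = 0.122) and 0.74 (exact permutation p = 0.0458, adjusted p = 0.144). With Aldh1l1, r was 0.99 in GMYC (exact permutation p = 0.00556, adjusted p = 0.0349) and 0.92 in GTML tumors (exact permutation p = 0.00134, adjusted p = 0.0295), and rho 0.94 (exact permutation p = 0.0167, adjusted p = 0.122) and 0.86 (exact permutation p = 0.0107, adjusted p = 0.122). For S100b, r was 0.91 (exact permutation p = 0.0222, adjusted p = 0.0978) and 0.81 (exact permutation p = 0.0322, adjusted p = 0.113), and rho 0.89 (exact permutation p = 0.0333, adjusted p = 0.144) and 0.48 (exact permutation p = 0.243, adjusted p = 0.356). Without the 2 tumors farthest from the median of Gfap, r with Aqp4 was 0.90 in GMYC and 0.93 in GTML tumors, that with Aldh1l1 0.95 and 0.79, and that with S100b 0.48 and 0.81, so the relation with S100b in GMYC rests on tumors 2 and 6. Among the 6 GTML tumors with the lower snoRNA share r was 0.92 for Aqp4, 0.89 for Aldh1l1 and 0.75 for S100b (exact permutation p = 0.0250, 0.0111 and 0.150). Slc1a2, in contrast, had r of 0.03 with Gfap in GMYC tumors and 0.18 in GTML tumors (exact permutation p = 0.867 and 0.594, adjusted p = 0.981 for both), and rho of 0.09 and -0.24 (exact permutation p = 0.919 and 0.582, adjusted p = 1 for both). Without the 2 tumors farthest from the median of Slc1a2 this r was 0.63 in GMYC and -0.69 in GTML tumors.

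Markers of other cells moved with Gfap to different degrees. The summed level of the granule neuron markers was 606 CPM in GMYC tumor 1 and between 222 and 350 CPM in the other 5 GMYC tumors, and that of the Purkinje cell markers was 427 CPM in GMYC tumor 1 and between 111 and 241 CPM in the others. GMYC tumor 2 had the lowest granule neuron sum of its model and also the lowest oligodendrocyte lineage sum, at 217 CPM against 335 to 433 CPM in the others. GTML tumor 4 likewise had the lowest granule neuron sum, at 219 CPM, and the lowest oligodendrocyte lineage sum, at 184 CPM, of the GTML tumors. In GMYC tumors the r of Gfap was 0.69 with the granule neuron sum, 0.71 with the Purkinje cell sum and 0.81 with the oligodendrocyte lineage sum (exact permutation p = 0.111, 0.111 and 0.128, adjusted p = 0.188, 0.188 and 0.201). In GTML tumors these were 0.64, 0.12 and 0.61 (exact permutation p = 0.0959, 0.779 and 0.100, adjusted p = 0.188, 0.779 and 0.188). Spearman's rho was 0.49, 0.89 and 0.31 in GMYC (exact permutation p = 0.356, 0.0333 and 0.564, adjusted p = 0.489, 0.144 and 0.689) and 0.36, 0 and 0.48 in GTML tumors (exact permutation p = 0.389, 1 and 0.243, adjusted p = 0.504, 1 and 0.356). Without the 2 tumors farthest from the median of Gfap, r fell to 0.37, 0.42 and 0.74 in GMYC and was 0.37, 0.34 and 0.46 in GTML tumors. The part of normal cerebellum in the biopsies was not tested.

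**Figure D3:**
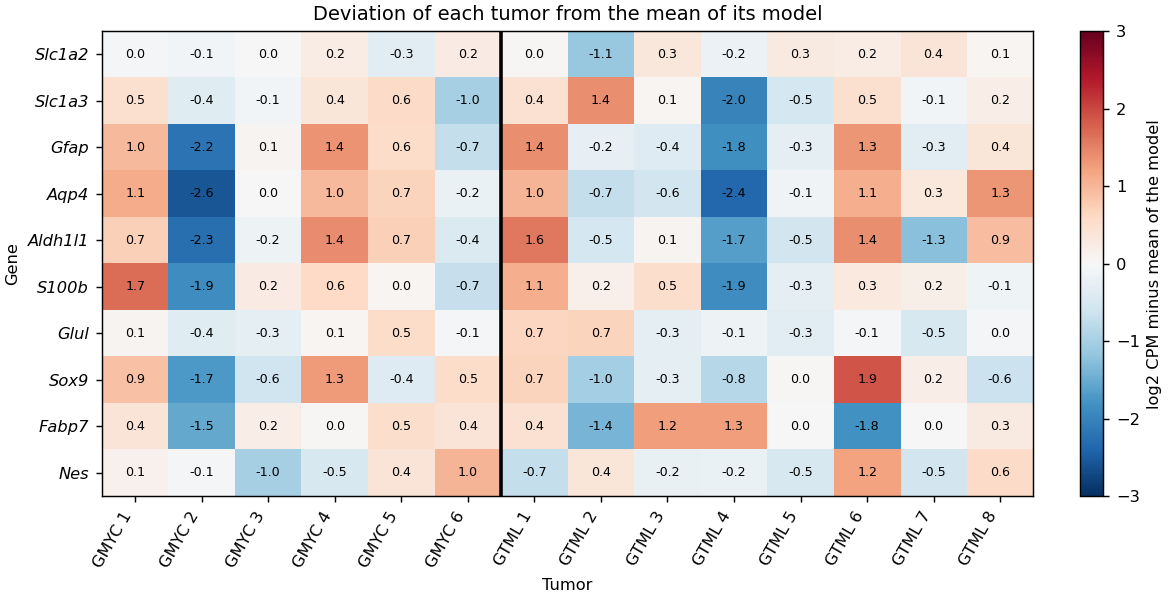
Deviation of each tumor from the mean of its model on the log2 CPM scale, for the 10 astroglial genes (rows) in the 14 tumors (columns), with blue below and red above the mean and a line between GMYC and GTML. Gfap, Aqp4, Aldh1l1 and S100b are low together in GMYC tumor 2 and GTML tumor 4, while Slc1a2 is near its mean in all tumors except GTML tumor 2.

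Sox9 was the gene of the 10 with the lowest level per kilobase, at 4.30, 0.702, 1.53, 5.65, 1.77 and 3.39 CPM in GMYC tumors and at 8.27, 2.60, 4.32, 2.91, 5.38, 19.4, 6.02 and 3.36 CPM in GTML tumors. GTML tumor 6 was far above the rest. Its fold change was the only one above 1 in favour of GTML, at 1.16 (SE 0.523, unadjusted p = 0.0408, adjusted p = 0.116 by edgeR), and 0.70 without GTML tumor 6. Fabp7, the lipid-binding protein of radial and Bergmann glia, was between 9.13 and 37.9 CPM (median 32.4) in GMYC and between 5.81 and 49.0 CPM (median 22.5) in GTML tumors. Its low values were those of GMYC tumor 2 and GTML tumors 2 and 6, and the fold change was -0.17 (SE 0.428, adjusted p = 0.788). Nes, the intermediate filament of neural stem cells, was between 18.8 and 75.2 CPM (median 38.3) in GMYC and between 25.0 and 95.7 CPM (median 35.6) in GTML tumors. GMYC tumor 6 and GTML tumor 6 were the highest of their models, and the fold change was 0.15 (SE 0.335, adjusted p = 0.762).

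Over the 10 genes, 0 were called higher in GTML, against 2.11% of all genes tested, and 0 were called higher in GMYC, against 1.10%. DESeq2 and limma-voom also called 0 of 10 in either direction, and DESeq2 gave Slc1a3 an adjusted p of 0.0465. At an adjusted p under 0.05 with no fold limit edgeR again gave 0 of 10, where 11.5% of all genes passed with a higher level in GTML and 9.71% with a higher level in GMYC. An unadjusted p under 0.05 was found for 3 of 10 genes (Slc1a3, Aqp4 and Sox9), against 37.8% of all genes tested. By sign 8 of 10 were lower in GTML, with a median log2 fold change of -0.49 against 0.04 over all genes tested.

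**Figure D4:**
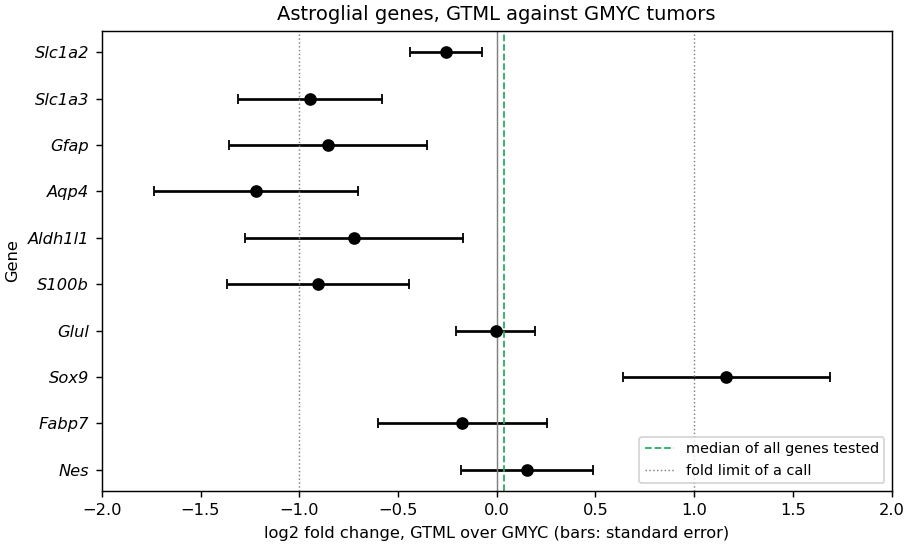
Log2 fold change of each astroglial gene (points), GTML over GMYC, with standard errors (bars), from edgeR over 6 GMYC and 8 GTML tumors. The dashed line marks the median of all genes tested (0.04) and the dotted lines the fold limit of a call, and only Aqp4 (-1.22) and Sox9 (1.16) lie beyond that limit.

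In median level per kilobase of exon, the order in GMYC tumors was Slc1a2 (51.9 CPM per kilobase), Glul (34.8), Gfap (26.95), Fabp7 (25.9), Slc1a3 (17.3), Aqp4 (9.88), S100b (7.32), Nes (5.97), Aldh1l1 (3.00) and Sox9 (0.623). In GTML tumors it was Slc1a2 (47.3 CPM per kilobase), Glul (31.5), Fabp7 (18.03), Gfap (10.4), Slc1a3 (7.95), Nes (5.55), S100b (4.53), Aqp4 (3.57), Aldh1l1 (1.22) and Sox9 (1.17). The ranges of neighbouring genes in each order overlapped between tumors, so their order could not be read from the ranges. Within tumors, the gene with the higher median was also the higher one in all 6 GMYC tumors for Slc1a3 over Aqp4 and Aldh1l1 over Sox9 and in all 8 GTML tumors for Aqp4 over Aldh1l1. The other neighbours changed places in 1 or more tumors. Exon lengths were taken from another assembly than that of the counts, which affects this comparison between genes but not that between tumors.

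The 5 genes whose log2 CPM followed Slc1a2 most closely over the 14 tumors, after the mean of each model was subtracted, were Scamp5, Atp1b2, Mapk1ip1, Gm17231 and Coro2b, with r of 0.97, 0.96, 0.96, 0.95 and 0.95. Atp1b2 encodes a subunit of the sodium pump that is abundant in astrocytes and was also in the astrocyte marker list. Gm17231 is annotated as antisense, and with strand handling not stated its reads cannot be told from those of an overlapping gene. These values rest in part on GTML tumor 2, the lowest of all 14 tumors for Slc1a2, Scamp5 and Atp1b2. Scamp5 was at 65.1 CPM there and between 104 and 156 CPM in the other 13 tumors. Without that tumor r was 0.87, 0.85, 0.92, 0.86 and 0.80, and only Mapk1ip1 of these was still among the 5 closest genes. None of the other 9 astroglial genes was near the top: their model-centred r with Slc1a2 lay between -0.67 for Glul and 0.48 for Sox9. Without GTML tumor 2 they lay between -0.49 and 0.44 for the same genes, and those of Slc1a3 and Fabp7 changed sign, from -0.39 to 0.12 and from 0.29 to -0.19.

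The wider astroglial lists were read against the shares of all genes called, 2.11% higher in GTML and 1.10% higher in GMYC, at which lists of this length hold few calls. Of 34 mature astrocyte markers tested, 0 were called in either direction, with a median log2 fold change of -0.19, and at an adjusted p under 0.05 only Slc7a10, an amino acid transporter of astrocytes, was higher in GTML (1.58, SE 0.504, adjusted p = 0.0373). Its levels were low, between 0.423 and 3.29 CPM in GMYC and between 0.649 and 5.42 CPM in GTML tumors. Apoe (-0.35, adjusted p = 0.0529), the lipid carrier of astrocytes, and Cbs (-1.13, adjusted p = 0.0624), an enzyme of cysteine synthesis, had the next smallest p. Without GTML tumor 2, the highest GTML tumor for Cbs, the gene passed the call at -1.62 (adjusted p = 0.00255 by edgeR), and the list then held 1 call. Calls were more numerous over all genes in that fit, with 1038 higher in GTML and 586 higher in GMYC of 20936 genes tested. Of 20 reactive astrocyte genes, 0 were called and the median was -0.12. Complement C3 was lower in GTML at an adjusted p of 0.0346 (-1.80), and Steap4 (-1.47, adjusted p = 0.0519) and Timp1 (0.96, adjusted p = 0.0559) did not pass. The summed level of the astrocyte list ran from 813 to 1503 CPM in GMYC and from 778 to 1420 CPM in GTML tumors.

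Bergmann glia markers held the 1 call among the glial identity lists. Hopx, a transcriptional cofactor expressed in Bergmann glia, was at 16.2, 4.63, 22.1, 25.3, 16.2 and 9.46 CPM in GMYC tumors and at 2.99, 9.25, 1.33, 3.09, 1.94, 1.94, 1.69 and 1.83 CPM in GTML tumors. In all, 5 of 6 GMYC tumors were above all 8 GTML tumors, while GMYC tumor 2 was below GTML tumor 2. The log2 fold change was -2.37 (SE 0.457, adjusted p = 0.00547 by edgeR). It was -2.88 (adjusted p = 0.000621) without GTML tumor 2, and the call was lost without any one of GMYC tumors 1, 3, 4 and 5 and GTML tumors 5, 6 and 7, with adjusted p up to 0.0160, and with a term for Y-linked counts (adjusted p = 0.0201). Among tumors with the higher snoRNA share it was -1.46 (adjusted p = 0.460) and on the lower side -2.70 (adjusted p = 0.00765). Ptprz1, a receptor phosphatase of radial and Bergmann glia, was also lower in GTML (-1.11, SE 0.271, adjusted p = 0.0128), short of the threshold of 0.01. The 12 markers, which include Slc1a3 and Fabp7, had a median of -0.68, and 9 of 12 were lower in GTML by sign. Of these markers, 3 of 12 had an unadjusted p under 0.05 by edgeR, against 37.8% of all genes tested.

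Radial glia and neural stem cell genes gave 0 calls of 16 tested and a median of -0.08. Apart from Ptprz1, the smallest p belonged to Msi1, an RNA-binding protein of neural stem cells (0.38, adjusted p = 0.0726), and to Slc1a3. Gliogenic transcription factors gave 0 calls of 20 and a median of 0.36. Hey1, a Notch effector, was lower in GTML at an adjusted p of 0.0166 (-0.72, SE 0.188), and Zbtb20 (1.11, adjusted p = 0.0567) and Nfix (1.33, adjusted p = 0.0879), both factors of astrocyte differentiation, did not pass. Their summed level was between 465 and 822 CPM in GMYC tumors and between 616 and 970 CPM in 7 GTML tumors, and it was 1745 CPM in GTML tumor 2. The 8 Müller glia markers, which share Slc1a3, Glul and Vim with other lists, gave 0 calls and a median of -0.12. Vim, an intermediate filament (-0.25, adjusted p = 0.418), and Rlbp1, a retinoid carrier of Müller glia (-0.25, adjusted p = 0.654), had the smallest p after Slc1a3. An unadjusted p under 0.05 by edgeR was found for 6 of 34 mature astrocyte, 4 of 20 reactive astrocyte, 4 of 16 radial glia, 5 of 20 gliogenic factor and 1 of 8 Müller glia genes, against 37.8% of all genes tested. In these 5 lists limma-voom called 0 genes, and DESeq2 called 1 reactive astrocyte gene (C3, adjusted p = 0.00968) and 1 radial glia gene (Ptprz1, adjusted p = 0.00184), both higher in GMYC. Among all 21024 genes tested, DESeq2 called 1312 higher in GTML and 579 higher in GMYC.

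Of 22 genes of glutamate transport and the glutamine cycle, the pathway of GLT1, 0 were called higher in GMYC tumors by edgeR, DESeq2 or limma-voom, and the median log2 fold change of the list was -0.30. In this list 11 of 22 genes had an unadjusted p under 0.05 by edgeR, against 37.8% of all genes tested, and an excess was not tested. Got1, the cytosolic aspartate aminotransferase, was between 104 and 183 CPM in GMYC and between 63.7 and 116 CPM in GTML tumors, a log2 fold change of -0.73 (SE 0.148, adjusted p = 0.00651) that missed the fold limit. Pcx, pyruvate carboxylase, was between 41.0 and 96.2 CPM in GMYC and between 27.8 and 48.5 CPM in GTML tumors (-0.85, SE 0.183, adjusted p = 0.00792). At an adjusted p under 0.05, Got2, the mitochondrial aspartate aminotransferase, and Glud1, glutamate dehydrogenase, were also lower in GTML, and Slc1a7 was higher. Slc1a7, named like Got2 and Glud1 after its values were seen, encodes a glutamate transporter known from the retina and was between 0 and 5.65 CPM in GMYC and between 3.41 and 63.6 CPM in GTML tumors (3.81, SE 0.889, adjusted p = 0.0106).

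**Figure D5:**
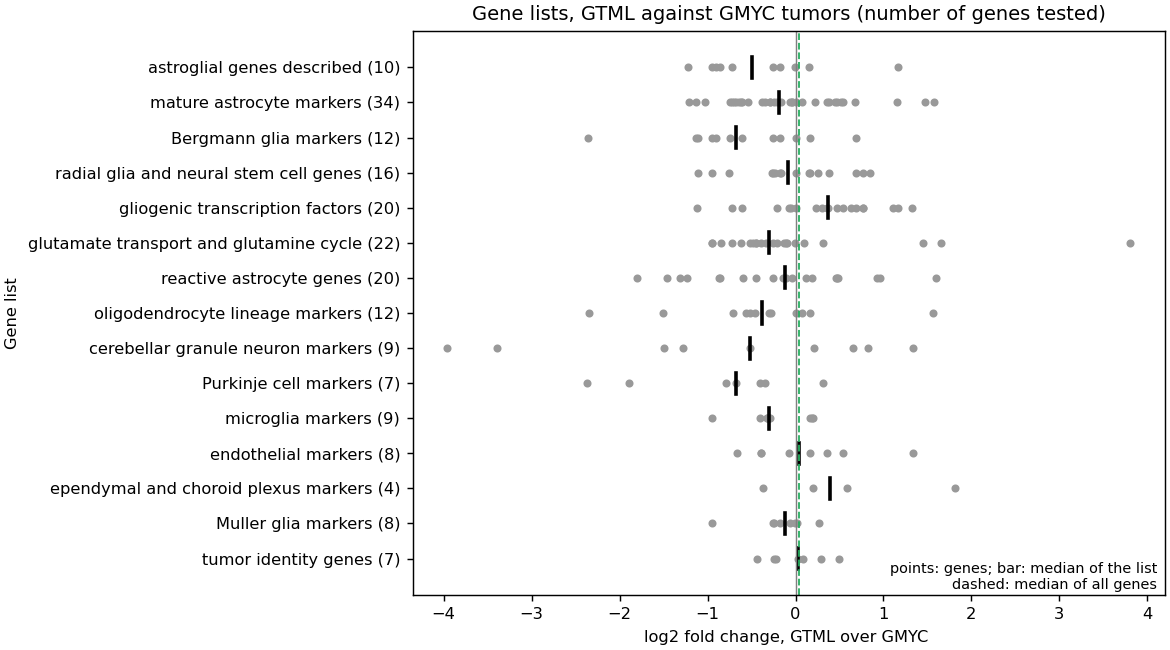
Log2 fold changes, GTML over GMYC, of the tested genes of each list (points) with the median of the list (bar) and of all genes tested (dashed line, 0.04), with the number of genes tested in parentheses. The points of the astroglial lists scatter on both sides of 0, Slc1a7 lies far to the right in the glutamate list (3.81) and Fat2 and Cbln3 far to the left among granule neuron markers (-3.96 and -3.39).

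Markers of other cells were followed in the same fit. The lists of oligodendrocyte lineage (12 tested), granule neuron (9), Purkinje cell (7), microglia (9), endothelial (8), ependymal and choroid plexus (4) and tumor identity genes (7) gave 0 calls in either direction by edgeR, with an unadjusted p under 0.05 for 4, 6, 2, 1, 1, 2 and 2 of them, against 37.8% of all genes tested. DESeq2 called 5 of these genes (Mog, Olig2, Cbln3, Kdr and Foxj1) and of these 5 limma-voom called Mog. Among all 21024 genes tested, DESeq2 called 1312 higher in GTML and 579 higher in GMYC, where edgeR called 444 and 232. The 5 calls are therefore read against the larger DESeq2 counts, and an excess over them was not tested. The edgeR medians of the 7 lists were -0.38, -0.52, -0.68, -0.30, 0.04, 0.39 and 0.03. At an adjusted p under 0.05, Olig1 and Olig2, transcription factors of oligodendrocyte progenitors, were lower in GTML (-1.50 and -2.35, adjusted p = 0.0312 and 0.0311). The myelin gene Mog was higher (1.56, adjusted p = 0.0104) and did not overlap between the models. Its levels were low, between 0.565 and 3.09 CPM in GMYC and between 3.41 and 7.94 CPM in GTML tumors. By sign 8 of the 12 oligodendrocyte lineage genes were lower in GTML. Without GTML tumor 2 Mog passed the call (1.64, adjusted p = 0.00541), in a fit where 1038 of 20936 genes were called higher in GTML. Cbln3, Fat2 and Etv1 of the granule neuron list had negative fold changes at an adjusted p under 0.05 (0.0350, 0.0406 and 0.0474). All 3 were highest in GMYC tumor 1, and without that tumor their edgeR adjusted p was 0.345, 0.541 and 0.166. The medians of Cbln3 (0.905 CPM in GMYC, 1.11 CPM in GTML) and Fat2 (0.493 and 1.78 CPM) were higher in GTML tumors. By sign 5 of the 9 genes of the granule neuron list were lower in GTML. Calb1 and Car8, Purkinje cell markers, were also highest in GMYC tumor 1 (-2.37 and -1.89, adjusted p = 0.0617 and 0.0571). Tubb3 (-0.44, adjusted p = 0.0226) and Neurod1 (-0.23, adjusted p = 0.0426) were lower in GTML, and Kdr of the endothelium (1.34, adjusted p = 0.0350) and Foxj1 of ciliated cells (1.81, adjusted p = 0.0401) were higher. The remaining genes with the smallest p in these lists, Itpr1, C1qb, C1qa, Pecam1, Flt1, Kcnj13, Clic6 and Crx, had adjusted p between 0.122 and 0.681.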

How the data were processed

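Frozen tumor biopsies were sequenced by RNA-seq on Ion Torrent instruments. The authors aligned the reads to mouse mm9 with STAR in a two-pass mode followed by Bowtie and counted them per gene with featureCounts and GENCODE annotations. The submitters' processing notes list STAR 2.4.0, Bowtie2 2.2 and Subread 1.5.2. The authors deposited whole-number counts per gene without normalization. The treatment of duplicates and of strand is not given in the sources used here. Another 18 columns have names that fit none of the labels. They were set aside, and the cell lines are not analysed here.

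Gene symbols and lengths of exons were taken from GENCODE M21 on GRCm38, matched by Ensembl identifier for 32620 of 37310 genes (87.4%). Genes were retained where 3 or more tumors exceeded 1 CPM by library size alone. TMM factors were then computed from the retained genes, and edgeR 4.0.16 (R 4.3.3) was used to compare GTML with GMYC tumors. limma 3.58.1, DESeq2 1.42.0 and other scalings, filters, terms and left-out tumors were alternatives. DESeq2 gave no adjusted p for 74 genes. CPM per kilobase used the union of exons. Correlations used log2 CPM with a prior count of 2, within a model, with exact two-sided permutation tests (scipy 1.17.1). Promoter windows came from a RefSeq table for GRCm38.p6, and only their first 250 bases, before the start, were searched on both strands. Plots were made in Python 3.11.15 with matplotlib 3.10.9.

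The genes and lists were chosen with earlier results of these data known. Besides the 10 genes, Myc and Mycn, the text names in each list the 3 genes with the smallest p and the 5 genes that follow Slc1a2 most closely. Other genes are named where a count of 5 or fewer called for it. Results for some genes of the lists are not reported here. The relations of Gfap and the values without GTML tumor 2 for the genes that follow Slc1a2, the spread within GTML tumors and the list sums were added after the values were seen. The fit was tested on simulated counts for 21024 genes. Total counts of 4602294 to 7279811 per tumor set the precision of each value. No pair of tumors of a model was alike within sampling noise, with a lowest chi-square over its degrees of freedom of 5.67. Each tumor counts as 1 replicate, and where tumors share an animal or litter is not given in the sources used here.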

Additional observations from a re-analysis of the deposited data

Results flagged for a closer look

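Of 110 combinations of a model and a named gene, 15 had 1 tumor far from the others by the gap between it and its neighbour relative to the range of the model. The nominal rate of this rule is 1 in 20 combinations, or 5.5. Many of the genes were chosen from these data and all share the same tumors, so this rate does not measure chance here. Of the 15 flags, 6 involved GMYC tumor 1 and 4 GTML tumor 2. Among the astroglial genes only Sox9 was flagged, at 19.4 CPM in GTML tumor 6 with the next GTML tumor at 8.27 CPM. Myc in GMYC tumor 6 was at 33.3 CPM, with the next lowest tumor at 134 CPM.

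In GMYC tumor 1 the levels were 62.5 CPM for Cbln3, 169 CPM for Fat2, 23.2 CPM for Etv1, 39.1 CPM for Car8, 32.8 CPM for Calb1 and 3.29 CPM for Slc7a10, each the highest of the GMYC tumors. The first 5 are markers of granule neurons or Purkinje cells. GTML tumor 2 had the highest Cbs (24.0 CPM) and Hopx (9.25 CPM) of its model and the lowest Crx (97.4 CPM) and Scamp5 (65.1 CPM). Also apart were Cbs at 33.3 CPM in GMYC tumor 3, Kdr at 70.9 CPM in GMYC tumor 2 and Car8 at 12.8 CPM in GTML tumor 3.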

How the results depend on the processing

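The 26 alternatives to the main comparison left the number of astroglial genes called at 0 in both directions. Slc1a2 stayed below 0, from -0.76 to -0.10 on the log2 scale, and from -0.32 to -0.15 when 1 tumor was left out. In all, 8 of the 10 genes kept their sign, and Glul and Nes did not. Glul was 0.010 with DESeq2, 0.011 with filterByExpr, 0.051 with the replicate block, 0.062 with a term for the snoRNA split and 0.75 among tumors with the higher snoRNA share, and ranged from -0.12 to 0.12 with 1 tumor left out. Nes was -0.035 with the snoRNA term and -0.39 among tumors with the lower share, and ranged from -0.10 to 0.42 with 1 tumor left out.

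The number of all genes called depended on the setting. Higher in GTML and higher in GMYC it was 1312 and 579 with DESeq2, 269 and 149 with no filter, 169 and 127 with the snoRNA term, 0 and 2 on the higher snoRNA side, 83 and 44 on the lower side, 68 and 15 with a term for Y-linked counts, and 2418 and 2041 at an adjusted p under 0.05. Higher in GMYC it was 430 with limma-voom and 352 with TMM factors from genes under 0.2 counts per exon base. With 1 tumor left out the counts ranged from 74 (without GMYC tumor 3) to 1038 (without GTML tumor 2) and from 40 to 586 (the same tumors). The median of all genes was 0.18 with no filter and between -0.056 and 0.053 otherwise. The cause was not tested.

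With the replicate block, the number of genes called was 7 and 3, Slc1a2 stayed below 0 and its call did not change. The numbers do not pair the tumors: r between tumors of the same number ran from -0.21 to 0.24, and 1 of 6 GMYC tumors correlated best with its own number.

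The relation of Slc1a2 with Mycn was -0.20 without the 2 farthest tumors and ranged from -0.10 to 0.21 with 1 tumor left out, and that with Myc from -0.75 to -0.32. Other sign changes were Gm17231 (-0.33 with limma-voom, -0.058 with the 0.2 limit, -0.40 with the block, -0.38 with the snoRNA term, -1.03 on the higher side, -0.092 to 0.23 with 1 tumor left out), Coro2b (-0.080 with the block, -0.024 with the snoRNA term, -0.43 on the higher side) and Rlbp1 (0.34 on the higher side, -0.47 to 0.031 with 1 tumor left out). On the higher side C1qb was 0.015, Vim 0.20, Scamp5 -0.22, Atp1b2 -0.40 and Mapk1ip1 -0.29. On the lower side Cbln3 was 0.25 and Fat2 2.38, and GMYC tumor 1 is not among the tumors of that side. The medians of the astrocyte, radial glia and reactive lists changed sign in 2, 2 and 4 of 25 alternatives, and those of the Bergmann glia, gliogenic factor and glutamate lists in 0.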
